A study of Arabidopsis thaliana with 8 samples.

Results

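Transcript levels of 9 genes that pattern the carpel and the fruit were followed through the organs of Arabidopsis thaliana plants carrying clf-28 and of wild-type plants. The genes were picked by name for their known roles, as the rows of CRC, SPT, INO, IND, ALC, HEC1, HEC2, HEC3 and RPL, and they make up 9 of the 34759 loci in the deposited table, of which 33868 have a gene name. Each was matched by its gene identifier, since the short name CRC is also used for a seed storage protein. All plants were of the Col-0 ecotype and grew in long days at 22 °C. The mutant allele clf-28 lies in CURLY LEAF (CLF), whose product is a histone methyltransferase of the Polycomb system, and wild-type plants have CLF intact. There were 8 libraries in all: clf-28 roots, wild-type roots, clf-28 leaves, wild-type leaves, clf-28 flowers, wild-type flowers, clf-28 siliques and wild-type siliques, with 1 library each. Roots and leaves came from plants of 2 weeks on plates, where the library called leaves holds the whole aerial part, and flowers and siliques came from plants of 5 weeks in soil. RNA came from whole organs, so fewer cells of a type and less RNA per cell cannot be told apart in any value given here.

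The Arabidopsis fruit, or silique, grows from the gynoecium, which is made of fused carpels. Its outer walls, the valves, are joined to a central replum along narrow valve margins where the ripe fruit opens. MADS-domain proteins give carpels their identity and later switch on basic helix-loop-helix (bHLH) proteins at the margins, where IND and ALC are needed for the fruit to open, while RPL, a homeodomain protein, keeps the replum free of margin fate. SPT and the HECATE proteins are bHLH factors of the style, stigma and transmitting tract, CRC is a YABBY factor of carpels and nectaries, and INO is a YABBY factor of the outer integument of the ovule. Polycomb proteins keep many floral regulators silent outside flowers.

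Of the 9 members, 6 encode bHLH proteins, and a related stretch of coding sequence is shown for 5 of them to let their relatedness be set beside their expression. Each line gives 120 bases of RefSeq TAIR10.1 coding sequence, and capitals mark the 47 positions that are the same in all 5 genes. The stretch was chosen for its identity: it is the window of HEC1 whose best matches in the other genes shared the most bases with it. The choice thus favours likeness to HEC1, and the percentages hold for this stretch only.
HEC1: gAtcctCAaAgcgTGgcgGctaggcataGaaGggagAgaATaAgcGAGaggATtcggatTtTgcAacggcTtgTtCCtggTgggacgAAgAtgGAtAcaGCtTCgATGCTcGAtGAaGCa
HEC2: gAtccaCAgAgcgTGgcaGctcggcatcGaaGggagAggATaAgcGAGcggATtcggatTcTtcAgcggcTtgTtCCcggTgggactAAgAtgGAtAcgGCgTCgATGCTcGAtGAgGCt
HEC3: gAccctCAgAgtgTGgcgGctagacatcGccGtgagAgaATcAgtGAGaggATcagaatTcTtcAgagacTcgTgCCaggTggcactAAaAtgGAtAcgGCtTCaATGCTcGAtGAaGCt
IND: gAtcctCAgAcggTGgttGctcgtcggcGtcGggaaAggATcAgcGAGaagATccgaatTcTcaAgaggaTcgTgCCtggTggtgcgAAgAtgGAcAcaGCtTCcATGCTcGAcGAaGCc
ALC: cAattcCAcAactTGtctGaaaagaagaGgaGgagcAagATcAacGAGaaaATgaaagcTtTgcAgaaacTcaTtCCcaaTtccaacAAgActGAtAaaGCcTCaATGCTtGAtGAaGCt
HEC1 and HEC2 were the closest pair, with 86.7% of these bases identical. HEC3 shared 78.3% with HEC2 and 77.5% with HEC1, and IND shared 75% with HEC3, whereas ALC shared between 51.7% and 56.7% with the other 4. Over whole exonic sequences, the longest run common to any pair of these 5 genes was 28 bases, between HEC1 and HEC2.

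The 250 bases before the start of the gene are shown for SPT and ALC, the 2 members that moved most in clf-28 leaves and siliques in the upward direction. Capitals mark the G-box (CACGTG) and an E-box variant (CACGCG, read as CGCGTG on the other strand), letters that bHLH proteins are known to bind. Both strands were searched, and the motifs do not overlap in these windows.
SPT: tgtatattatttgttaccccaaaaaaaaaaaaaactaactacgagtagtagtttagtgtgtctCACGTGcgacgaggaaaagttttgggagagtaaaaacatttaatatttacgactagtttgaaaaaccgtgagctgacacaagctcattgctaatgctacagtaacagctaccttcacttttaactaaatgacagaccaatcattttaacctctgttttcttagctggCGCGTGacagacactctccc
ALC: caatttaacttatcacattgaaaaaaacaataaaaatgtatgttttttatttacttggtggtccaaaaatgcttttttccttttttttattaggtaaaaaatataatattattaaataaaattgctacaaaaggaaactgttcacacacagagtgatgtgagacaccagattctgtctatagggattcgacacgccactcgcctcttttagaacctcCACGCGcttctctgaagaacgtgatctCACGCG
The SPT window is chr4:17413833-17414082 on the plus strand and the ALC window is chr5:26786432-26786681 on the minus strand, both in TAIR10.1. SPT held a G-box starting 187 bases before the gene and an E-box variant at 20 bases, and ALC held E-box variants at 33 and 6 bases. The E-box variant stood in 2 of 9 members and in 2.57% of 27443 protein-coding genes, and the G-box in 1 of 9 members and in 6.49% of genes. The telobox AAACCCTA and the repeat GAGAGAGA, letters known from Polycomb-bound sites in Arabidopsis, were in 0 of 9 windows, against 4.49% and 4.91% of genes, and the shorter GAGAGA, which the longer repeat contains, was in the RPL window and in 20.6% of genes. A match is only a match of letters.

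Expression was given by the authors in FPKM, a count of fragments scaled to transcript length and to the mapped fragments of the library. Depth is unknown, and with 1 library per group the only error of a single value is the authors' own interval. That interval was wide: the lower bound was 0 for 72 of 72 member values, and the upper bound stood at 2.03 to 4.46 times the FPKM where the gene was above 0. All 72 values carried the usable status. Between 17860 and 20448 named loci reached 1 FPKM in a library. CLF itself was at 7.84 FPKM in clf-28 roots against 17.2 in wild-type roots and 5.5 against 6.57 in leaves. For flowers CLF stood at 14.7 against 9.99 FPKM and for siliques at 15.1 against 6.53, so its gene-level value was lower in clf-28 in roots and leaves alone and is no check of the labels there. Organ markers followed the labels with exceptions that touch later results. Of 6 seed storage and oil body genes, 3 were at 2024 to 5464 FPKM in clf-28 siliques, against 0.600 to 2.23 in wild-type siliques, and the other 3 carried the status for too many reads in clf-28 siliques. In roots the same 6 genes summed to 0.0689 FPKM in clf-28 and 26.0 FPKM in wild type. The 4 pollen and tapetum genes were under 1 FPKM in roots and leaves and summed to 478 FPKM in clf-28 flowers and 833 FPKM in wild-type flowers. The 4 green tissue genes were listed at 0 in both leaf libraries, where they have no usable value.

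**Figure D1:**
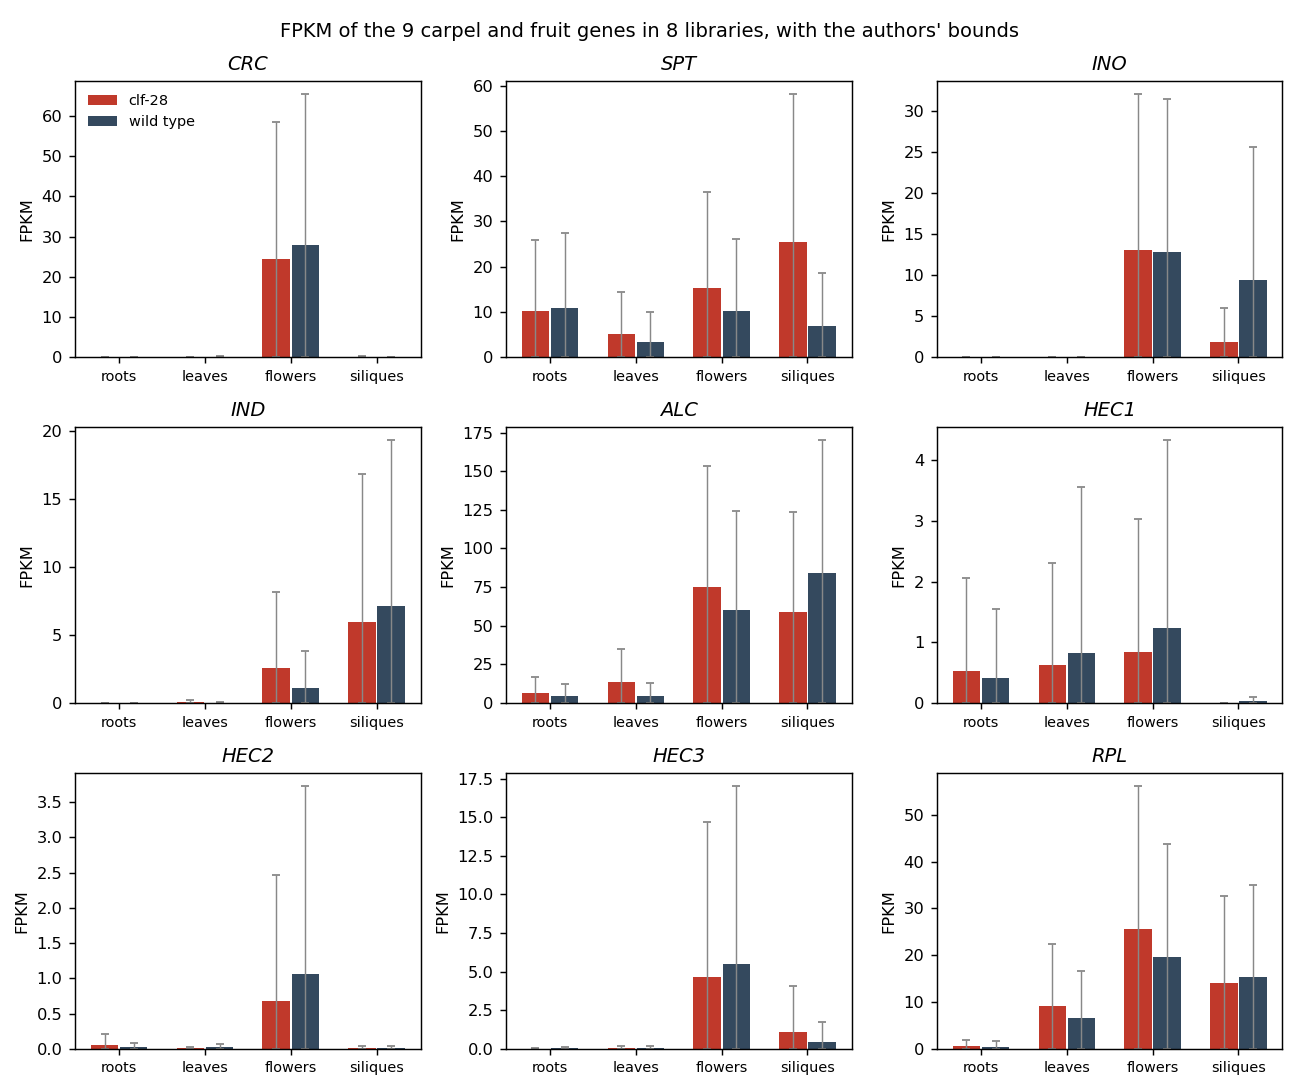
FPKM (vertical axes, each on its own scale from 0) of each gene in the 4 organs (horizontal axes), clf-28 in red and wild type in dark blue, 1 library per bar. Grey lines span the authors' lower to upper bound, and in each panel the bounds of the genotypes overlap wherever a gene is above 0 in both. CRC stands in flowers alone (24.5 and 27.8 FPKM), IND is highest in siliques, and SPT is present in all 8 libraries.

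CRC (AT1G69180, chromosome 1, 26007350 to 26009141 in TAIR10.1, 7 exons) is needed for carpel closure, style growth and nectaries. It was at 24.5 FPKM in clf-28 flowers and 27.8 in wild-type flowers, and at 0.0793 and 0.0332 FPKM in clf-28 and wild-type siliques. It was listed at 0 in both root libraries and was at 0.0194 and 0.0582 FPKM in clf-28 and wild-type leaves. Flowers thus held 99.6% of its summed FPKM, and the genotypes differed there by a log2 ratio of -0.18 (all such ratios are clf-28 over wild type on FPKM + 1). INO (AT1G23420, chromosome 1, 8317297 to 8319491, 7 exons) was listed at 0 in all 4 root and leaf libraries. It was at 13.0 FPKM in clf-28 flowers and 12.8 in wild-type flowers, a log2 ratio of 0.02. In siliques it was at 1.83 FPKM in clf-28 and 9.45 in wild type, a log2 ratio of -1.88. The wild-type silique was thus close to the flowers for this ovule gene and the clf-28 silique was well below them.

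SPT (AT4G36930, chromosome 4, 17414083 to 17416386, 7 exons) also restrains growth and germination outside the flower, and it reached 1 FPKM in 8 of 8 libraries, as did ALC alone among the other members. It was at 10.15 FPKM in clf-28 roots against 10.98 in wild-type roots and at 5.1 against 3.3 in leaves. It was at 15.2 FPKM in clf-28 flowers against 10.3 in wild-type flowers and at 25.5 against 6.84 in siliques. The clf-28 silique was its highest library, with a log2 ratio of 1.76 to wild type, and the ratio was -0.10 in roots, 0.51 in leaves and 0.52 in flowers. In siliques the authors' upper bound for wild type, 18.6 FPKM, was under the clf-28 value of 25.5, but the clf-28 interval began at 0.

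HEC1 (AT5G67060, chromosome 5, 26765992 to 26767257), HEC2 (AT3G50330, chromosome 3, 18656955 to 18658377) and HEC3 (AT5G09750, chromosome 5, 3026109 to 3027114) are genes of 1 coding exon whose products act together with SPT in the female reproductive tract. HEC3 was the most abundant, at 4.62 FPKM in clf-28 flowers and 5.5 in wild-type flowers and at 1.11 and 0.465 in clf-28 and wild-type siliques, with at most 0.048 in roots and leaves. HEC2 was at 0.676 FPKM in clf-28 flowers and 1.06 in wild-type flowers, and at most 0.0581 elsewhere. HEC1 differed from both in its root and leaf values: it was at 0.531 and 0.414 FPKM in clf-28 and wild-type roots and at 0.625 and 0.826 in leaves. Flowers had 0.843 FPKM in clf-28 and 1.24 in wild type, and siliques were listed at 0 in clf-28 and at 0.0253 in wild type. Roots and leaves held 53.2% of the summed FPKM of HEC1, against 5.61% for HEC2 and 1.25% for HEC3. HEC1 and HEC2, the closest pair among the 5 genes over the coding stretch shown, thus differed in these shares. Both were highest in wild-type flowers, the 1 library where they reached 1 FPKM. The root and leaf values of HEC1 were under 1 FPKM, with intervals that began at 0. All 3 were lower in clf-28 flowers, by log2 ratios of -0.28, -0.30 and -0.21, which are small beside the authors' intervals.

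IND (AT4G00120, chromosome 4, 41665 to 43197, 1 exon) sets the separation and lignified layers of the valve margin. It was listed at 0 in both root libraries and was at 0.0499 and 0.0169 FPKM in clf-28 and wild-type leaves. In flowers it was at 2.6 FPKM in clf-28 and 1.1 in wild type, a log2 ratio of 0.78, and in siliques at 5.98 in clf-28 and 7.1 in wild type, a log2 ratio of -0.22. Siliques held 77.7% of its summed FPKM, the highest silique share of the 9 genes. The table places it in a stretch shared with neighbouring loci, 65 rows in all, but gives it a value of its own.

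ALC (AT5G67110, chromosome 5, 26785106 to 26786431, 5 exons), which shapes the separation layer, was the most abundant member in flowers and siliques. It was at 74.8 FPKM in clf-28 flowers and 60.0 in wild-type flowers, and at 58.8 and 83.9 in clf-28 and wild-type siliques. In leaves it was at 13.7 FPKM in clf-28 and 4.29 in wild type, a log2 ratio of 1.47, and in roots at 6.42 and 4.55 FPKM in clf-28 and wild type, a log2 ratio of 0.42. Of its 1030 annotated exonic bases, 870 lie under a transcript of ICU2 (AT5G67100), a DNA polymerase subunit gene on the opposite strand. The sources used here state no strand-aware counting, so reads of the overlap cannot be told apart by strand. ICU2 was at 3.76 FPKM in clf-28 leaves and 5.59 in wild-type leaves, a log2 ratio of -0.47, and its ratio was below 0 in the other 3 organs too (-0.31 in roots, -0.15 in flowers and -0.29 in siliques). Of the 2 annotated ICU2 transcripts, 1 shares bases with ALC. The ICU2 values are for the whole gene and do not show how that transcript changed. The part of its reads in the ALC values was not tested.

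RPL (AT5G02030, chromosome 5, 395567 to 399125, 4 exons), also called BELLRINGER or PENNYWISE, works in the shoot and inflorescence as well as the replum. It was at 25.5 FPKM in clf-28 flowers and 19.7 in wild-type flowers, and at 14.1 and 15.3 in clf-28 and wild-type siliques. Levels were 9.18 and 6.53 FPKM for clf-28 and wild-type leaves, and 0.517 and 0.434 for roots. Its log2 ratios lay between -0.11 in siliques and 0.43 in leaves, so it varied by organ far more than by genotype.

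The order of the members changed with the organ. SPT led in both root libraries, with ALC next, and no other member reached 1 FPKM there. In leaves ALC led in clf-28 (13.7 FPKM, then RPL at 9.18) and RPL led in wild type (6.53 FPKM, then ALC at 4.29). ALC led in both flower libraries, followed by RPL at 25.5 and CRC at 24.5 FPKM in clf-28 and by CRC at 27.8 and RPL at 19.7 FPKM in wild type. In siliques ALC led again, followed by SPT at 25.5 FPKM in clf-28 and by RPL at 15.3 FPKM in wild type. The authors' intervals of neighbours above 0 overlapped, since all began at 0. The FPKM of ALC was 2.3 times that of SPT in clf-28 siliques, against 12.3 times in wild-type siliques, and 4.92 against 5.81 times in flowers.

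Whether these genes differ in clf-28 was asked first within each organ, by size alone: a gene was past the rule when FPKM + 1 differed 2-fold or more, so that its log2 ratio was 1 or above, or -1 or below, provided that either library had 1 FPKM. In siliques 1 of 6 measured members was higher (SPT) and 1 lower (INO), where 11.3% and 7.95% of all measured loci were past the rule. In leaves 1 of 3 was higher (ALC) and 0 lower, with backgrounds of 5.46% and 1.40%. In flowers, where 9 of 9 were measured, 0 were higher and 0 lower, with backgrounds of 1.50% and 1.02%. In roots 0 of 2 were past the rule in either direction, with backgrounds of 5.52% and 1.21%. The median log2 ratio of the measured members was 0.16 in roots beside -0.09 over all measured loci, 0.51 beside -0.02 in leaves, 0.02 beside 0.01 in flowers and -0.16 beside -0.01 in siliques. With a pseudocount of 0.1 FPKM, IND was also past the rule in flowers and HEC3 in siliques.

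**Figure D2:**
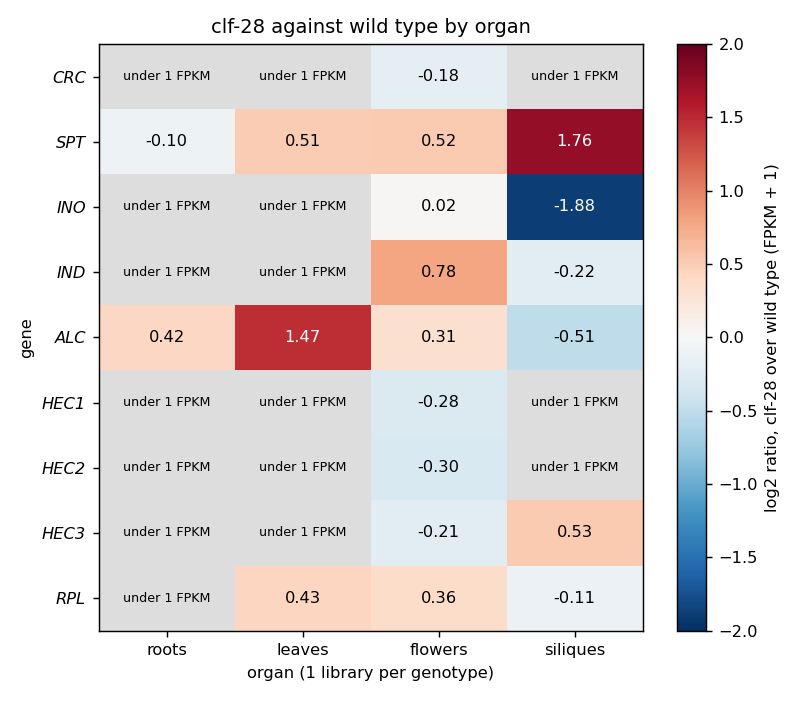
Log2 ratio of clf-28 over wild type on FPKM + 1 (colour and number) for each gene (rows) in each organ (columns), with grey cells where neither library reached 1 FPKM. SPT (1.76) and INO (-1.88) in siliques and ALC in leaves (1.47) are past 2-fold, and the flower column stays between -0.30 and 0.78.

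The silique values stand beside a large difference in seed transcripts. The oleosin gene OLEO1, an oil body protein of maturing seeds, was at 4714 FPKM in clf-28 siliques and 1.73 in wild-type siliques, and the 2S albumin SESA1 at 5464 and 0.600. Of the green tissue markers, 3 had usable silique values and were lower, among them CAB3 at 704 FPKM in clf-28 and 2466 in wild type. The 4 pollen and tapetum genes summed to 12.0 FPKM in clf-28 siliques and 0.287 FPKM in wild-type siliques. The part of these differences in the silique values of SPT, INO and ALC was not tested. In leaves the seed and pollen markers were under 1 FPKM in both genotypes, beside the ALC difference. The green tissue markers had no usable value there, and the part of tissue make-up in the ALC difference was not tested.

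An effect of clf-28 common to the organs was tested with limma on log2(FPKM + 1), with organ as a block of 4 pairs, over 23791 loci. Each p below is adjusted by Benjamini-Hochberg over those loci. SPT had the smallest p of the members, with a mean log2 difference of 0.67 (SE 0.32, adjusted p = 0.449 in limma) and a higher value in clf-28 in 3 of 4 organs. Without siliques the SPT difference was 0.31. ALC stood at 0.42 (SE 0.32), with 0.0754 without leaves and 0.73 without siliques, RPL at 0.19 (SE 0.13), IND at 0.15 (SE 0.19) and HEC3 at 0.07 (SE 0.15). INO stood at -0.47 (SE 0.38), HEC1 at -0.09 (SE 0.11), HEC2 at -0.07 (SE 0.10) and CRC at -0.04 (SE 0.10). None passed in limma, where 0 of 23791 loci did (0% in either direction), and at an unadjusted p under 0.05 there were 1317 loci higher, 1509 lower and 0 members. The clf-28 effect in flowers and siliques was also compared with that in roots and leaves, in a fit with 2 residual degrees of freedom. ALC gave -1.04 (SE 0.50, adjusted p = 0.831 in limma), SPT 0.94 (SE 0.53) and INO -0.93 (SE 0.72), and 0 loci passed (0% in either direction), and an unadjusted p under 0.05 was reached by 393 loci as higher and by 656 as lower.

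Organs were compared next, with the genotypes as the replicates. In the same limma fit, flowers and siliques together were set against roots and leaves, a contrast in which organ, plant age and growth on plates or soil cannot be told apart. ALC had a mean log2 level of 6.12 ± 0.25 in flowers and siliques and 2.91 ± 0.68 in roots and leaves (SD, 4 libraries each), a difference of 3.21 (SE 0.32, adjusted p = 0.00171 in limma). The SDs here include differences between the organs of a side, which the fit removes. The SE and p measure only the spread left after organ and genotype, not those SDs. INO stood at 3.12 ± 1.1 against 0 in every root and leaf library (adjusted p = 0.00301 in limma). RPL stood at 4.26 ± 0.36 against 1.85 ± 1.49 (adjusted p = 0.000462 in limma), CRC at 2.42 ± 2.7 against 0.03 ± 0.04 (adjusted p = 0.000362 in limma) and IND at 2.18 ± 0.90 against 0.02 ± 0.03 (adjusted p = 0.00125 in limma). In all, 7 of 9 members passed as higher in flowers and siliques, including HEC3 by 1.65 (SE 0.15) and HEC2 by 0.42 (SE 0.10), where 32.8% of all loci passed as higher and 16.6% as lower. The libraries of flowers and siliques lay above those of roots and leaves without overlap for INO, IND, ALC, HEC3 and RPL. They overlapped for SPT (0.86, SE 0.32, adjusted p = 0.0756 in limma) and HEC1 (-0.15, SE 0.11, adjusted p = 0.288 in limma), which did not pass, and for CRC and HEC2, whose silique values lay near those of roots and leaves. Overlap was not counted over all loci, so it is no result about the members as a group. CRC, INO, IND, HEC3 and HEC2 reached 1 FPKM in flowers or siliques alone, so they entered the fit through the organs where they are high. HEC1 entered through wild-type flowers alone. With no filter on low values the same 7 members passed, at an adjusted p of 0.0190 in limma for HEC2. The order of sizes depended on the pseudocount: at 0.1 FPKM the difference was 6.22 for INO, 4.91 for IND, 4.10 for CRC, 3.92 for HEC3 and 3.39 for ALC. The RPL difference of 2.42 was 1.13 without roots and 3.70 without leaves, that of HEC3 was 0.76 without flowers and 2.54 without siliques, and that of IND was 1.44 without siliques, and all of these passed. Without flowers the CRC difference was 0.05 (adjusted p = 0.497 in limma), against 4.73 without siliques, and HEC2 stood at -0.02, and HEC2 also missed without leaves (adjusted p = 0.0892 in limma) and with quantile scaling (0.18, adjusted p = 0.155 in limma). SPT passed without roots (1.45, adjusted p = 0.0488 in limma) and without siliques (0.82, adjusted p = 0.0286 in limma), and HEC1 passed as lower without flowers (-0.65, adjusted p = 0.0220 in limma), with quantile scaling (-0.61, adjusted p = 0.00878 in limma) and with a pseudocount of 0.1 FPKM (-0.95, adjusted p = 0.0212 in limma). The median over all loci was 0.19 as deposited and -0.03 with quantile scaling, which called 5313 loci higher and 5936 lower in place of 7812 and 3953. INO, IND, ALC, HEC3, RPL and CRC passed as higher under that scaling too.

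Siliques were then set against flowers. CRC fell furthest, with a mean log2 level of 0.08 ± 0.04 in siliques and 4.76 ± 0.13 in flowers (SD, 2 libraries each), a difference of -4.68 (SE 0.14, adjusted p = 0.000513 in limma). The 3 HECATE genes fell as well, with differences of -1.78 for HEC3 (SE 0.21, adjusted p = 0.00632 in limma), -1.01 for HEC1 (SE 0.15, adjusted p = 0.0120 in limma) and -0.88 for HEC2 (SE 0.14, adjusted p = 0.0137 in limma). CRC entered the fit through flowers alone, the high side of this contrast, and HEC1 and HEC2 through wild-type flowers alone. With no filter on low values these genes were called again (adjusted p = 0.000552 for CRC, 0.0138 for HEC1 and 0.0148 for HEC2 in limma). The sizes for HEC1 and HEC2 follow the pseudocount, with -3.33 for HEC1 and -3.11 for HEC2 at 0.1 FPKM, and -0.27 and -0.23 at 5 FPKM. IND was the only member called higher, with 2.91 ± 0.15 in siliques and 1.46 ± 0.55 in flowers, a difference of 1.45 (SE 0.27, adjusted p = 0.0227 in limma). The count is 1 of 9 higher and 4 of 9 lower, where 6.00% of all loci passed as higher and 16.4% as lower. INO at -1.36 (SE 0.54) and RPL at -0.57 (SE 0.19) did not pass, and ALC at 0.07 (SE 0.46) and SPT at 0.09 (SE 0.45) had wide errors, the genotypes going opposite ways between these organs. The IND difference lost its call when roots or leaves were left out of the fit (adjusted p = 0.0653 and 0.0623 in limma), at the same size, those organs serving it only through the estimate of spread. The median over all loci was -0.18 as deposited and -0.02 with quantile scaling, under which the 1 member called higher and the 4 called lower were again called.

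**Figure D3:**
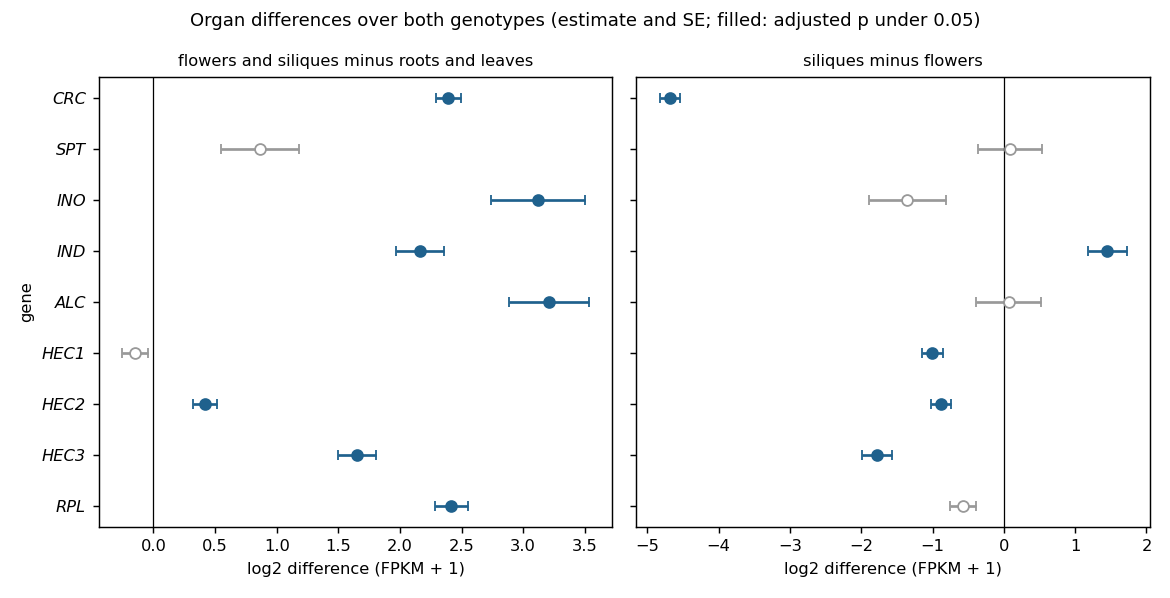
Log2 differences on FPKM + 1 (horizontal axes) with their SE for the 9 genes (vertical axes), over both genotypes: flowers and siliques minus roots and leaves in the left panel, siliques minus flowers in the right panel. Filled points passed an adjusted p of 0.05 in limma: 7 genes in the left panel, all above 0, and 5 in the right panel, with IND at 1.45 the single one above 0 and CRC at -4.68 the lowest.

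Other genes of carpel and fruit patterning give the setting for these members. Of 44 such genes, 42 were measured in flowers, 36 in siliques, 29 in leaves and 23 in roots, and 5 of the 44 are split over several rows of the table, of which the most abundant usable row was taken. In flowers 0 were past the 2-fold rule. In leaves 3 of 29 were higher and 1 lower, beside the 5.46% and 1.40% of all measured loci given above. The 3 were all of the carpel identity and valve margin MADS list: AG at 21.0 FPKM in clf-28 and 0.0788 in wild type, SHP2 at 5.05 and 0.198, and FUL at 3.25 and 1.03. AG specifies carpels, SHP2 promotes valve margin fate and acts before IND, and FUL represses IND in valves. SHP1, the close relative of SHP2, was at 1.25 and 0.550 FPKM in clf-28 and wild-type leaves, a log2 ratio of 0.54. BEE3, a bHLH gene of the transmitting tract, was the 1 lower gene in leaves, at 8.28 FPKM in clf-28 and 24.5 in wild type. In leaves of clf-28, where these MADS genes and ALC were past the rule, IND was at 0.0499 FPKM, CRC at 0.0194 and INO was listed at 0.

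In siliques 4 of 36 measured genes were higher and 2 lower, shares near or under the 11.3% and 7.95% of all measured loci, so the counts are no result about these genes as a group. ADPG1, a polygalacturonase of the dehiscence zone that loosens cell walls, was at 83.1 FPKM in clf-28 and 4.43 in wild type, a log2 ratio of 3.95. The valve genes FIL and YAB3, both of the YABBY family, were at 32.9 and 12.6 FPKM in clf-28 and 10.02 and 1.93 in wild type, and KAN1, an organ polarity gene, was at 23.5 FPKM in clf-28 and 10.97 in wild type. AG was lower at 12.4 FPKM in clf-28 and 31.1 in wild type, as was STK, the ovule identity gene, at 88.5 and 184. The lignification regulators NST1 and NST3, which act at the margin, were at 4.28 and 4.98 FPKM in clf-28 and 7.77 and 8.23 in wild type, with log2 ratios of -0.73 and -0.63 that did not reach the rule. The seed, pollen and green tissue differences given above stand beside these silique values too, and their part was not tested. In roots 2 of 23 were higher and 1 lower, beside 5.52% and 1.21% of all measured loci. AG was at 1.15 FPKM in clf-28 roots and listed at 0 in wild-type roots, and NGA1, a style gene, was at 3.05 and 0.225. The gibberellin synthesis gene GA3OX1, a target of IND in fruits, was the 1 lower gene in roots, at 2.71 FPKM in clf-28 and 7.73 in wild type. Of the 4 root markers, IRT1 was at 159 FPKM in clf-28 roots and 373 in wild-type roots and SCR at 16.3 and 23.6, while COBL9 stood at 10.7 and 10.5 and EXPA7 at 30.8 and 30.4. SCR was not particular to roots, at 18.1 and 17.7 FPKM in clf-28 and wild-type flowers and 13.25 and 17.25 in leaves. IRT1 was also at 14.8 and 16.5 FPKM in clf-28 and wild-type flowers. The 4 green tissue genes summed to 68.6 FPKM in clf-28 roots and 147 in wild-type roots, with 3 of 4 past the 2-fold rule, and their part in the root values was not tested. The median log2 ratio of the measured genes of this pathway was -0.03 for roots, -0.12 for leaves, 0.02 for flowers and -0.14 for siliques.

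**Figure D4:**
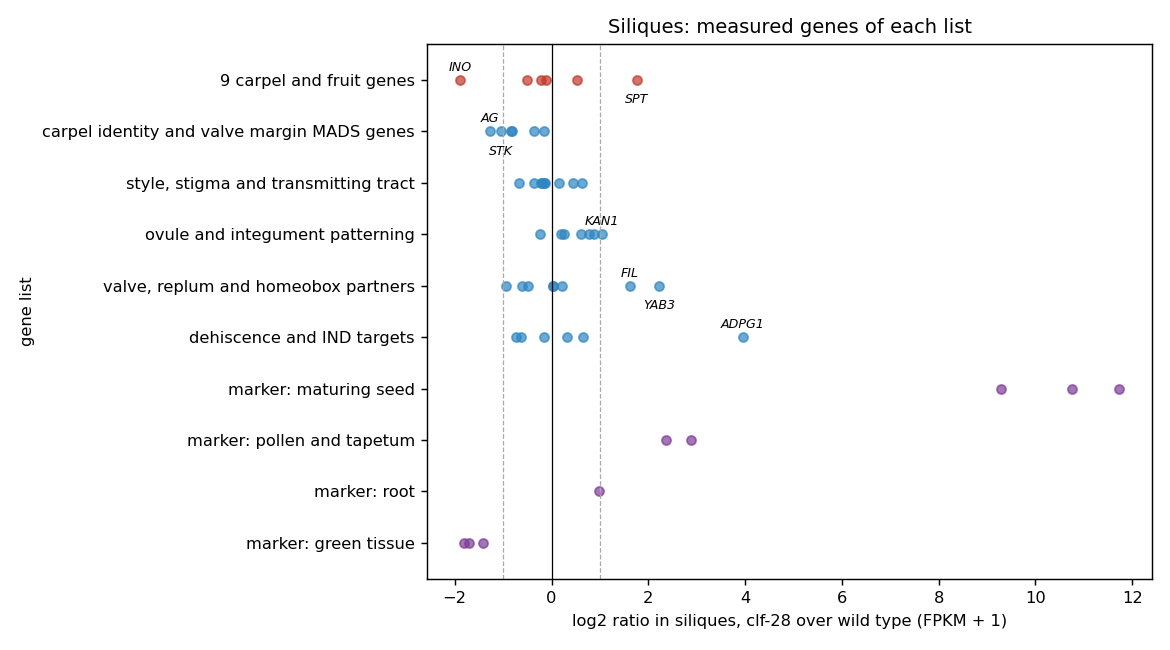
Log2 ratio in siliques, clf-28 over wild type on FPKM + 1 (horizontal axis), of each measured gene (points) in each list (rows), with the 2-fold rule as dashed lines and names for the patterning genes past it. The 9 members span -1.88 (INO) to 1.76 (SPT), ADPG1 stands at 3.95, and the 3 seed markers with a usable value lie at 9.29 to 11.7.

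The loci whose spread over the 8 libraries was most like each member were found by comparing shares of summed FPKM, as the percent of the profile that differs, among 18876 loci. For CRC these were AT5G46990 (0.362%) and SWEET9 (0.771%), the sugar transporter of nectaries, which was at 68.3 FPKM in clf-28 flowers and 77.2 in wild-type flowers and at most 1.21 elsewhere. INO was nearest to AT2G41470 (3.24%) and VDD (3.95%), a gene of the female gametophyte, which was at 1.62 FPKM in clf-28 siliques and 7.82 in wild-type siliques. HEC3 was nearest to BSMT1 (2.91%) and MYB111 (4.02%), and ALC to SCPL41 (4.2%) and GRF8 (5.1%). SPT was nearest to ARGOS (5.46%), which promotes organ growth, and AGT3 (6.66%), and ARGOS was at 13.3 FPKM in clf-28 siliques and 3.44 in wild-type siliques. Likeness in a given library follows from the choice by profile and is no separate result. RPL was nearest to AT1G44890 (6.84%) and BLH8 (7.78%), its close relative also called POUND-FOOLISH, and IND to AT5G40155 (7.23%) and UBC31 (7.38%). Among the members themselves, CRC and HEC2 differed over 10.3% of their profiles and CRC and IND over 77.7%.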

How the data were processed

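RNA sequencing was done on total RNA of whole organs, 8 libraries with 1 per genotype and organ. Libraries were made with the TruSeq RNA version 2 kit, per the labels' protocols. The submitters' processing notes name TopHat, Cufflinks and TAIR10, and versions are not given in the sources used here. Per the file headers, the authors deposited an FPKM with lower and upper bounds for each locus and library. A status flag, of unit other in the deposited table, marks each value as usable or not. Whether libraries were scaled against each other is not stated, and depth is unknown, so no counting interval was computed.

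FPKM was used as deposited and transformed as log2(FPKM + 1). Limma 3.58.1 in R 4.3.3 was fitted, with a mean-variance trend, to named loci that had a usable status throughout and reached 1 FPKM in any of the 8 libraries. The additive fit of organ and genotype has 3 residual degrees of freedom, and its p-values measure the spread left between these single libraries, with organs standing in as replicates of the genotypes and genotypes as replicates of the organs. All 9 members entered, CRC through flowers alone and HEC1 and HEC2 through wild-type flowers alone. Alternatives were pseudocounts of 0.1 and 5 FPKM, quantile scaling, no filter, no trend, other model terms and leaving out each organ. Per organ, up to 3 pathway genes past the 2-fold rule were to be named in each direction, largest first. KAN1, SHP1, NST1 and NST3 fall outside this and were chosen after their values were seen. For profiles, the 2 nearest loci were named for members with 5 FPKM or more in a library. Positions and sequences are RefSeq TAIR10.1, whose symbols were used for the deposited identifiers, and the coding stretch of 1 bHLH gene is not reported here. Tables were computed with pandas 2.3.3 and numpy 2.4.6 under Python 3.11.15, and matplotlib 3.10.9 drew the plots. The members and gene lists were chosen with earlier results of these data known.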

Additional observations from a re-analysis of the deposited data

How the results depend on the processing

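Genotypes were paired by organ, the block of the genotype fit, and without that block 0 members were called, as with it. No paired analysis by replicate number was possible because the labels give none. Within organs, pseudocounts of 5 and 0.1 FPKM gave log2 ratios of 1.37 and 1.89 for SPT in siliques, -1.08 and -2.31 for INO in siliques, 1.01 and 1.65 for ALC in leaves, 0.162 and 1.104 for HEC3 in siliques and 0.319 and 1.18 for IND in flowers. Of the counts by the 2-fold rule, a pseudocount of 0.1 FPKM gave 1 member higher in flowers and 2 higher in siliques. Asking for separate authors' intervals gave 0 higher in leaves, 0 higher in siliques and 0 lower in siliques, which says nothing about stability, since each member's lower bound is 0 and no interval could separate. For flowers and siliques against roots and leaves, 1 member was called lower, HEC1, with a pseudocount of 0.1 FPKM and with quantile scaling. Leaving out single organs gave 0 to 1 lower there, and 0 higher for siliques against flowers when roots or leaves were left out. Directions turned in values that had not passed under the main settings, those used before the alternatives, with the cause not tested. Over the 4 organs, leaving out single organs gave CRC -0.0770 to 0.0030, IND -0.0566 to 0.276 and HEC2 -0.106 to 0.0096, turned without flowers. INO ran over -0.628 to 0.0063 and HEC3 over -0.0795 to 0.167, turned without siliques, and quantile scaling gave HEC3 -0.0057. The clf-28 effect by stage turned for CRC with a pseudocount of 0.1 FPKM (0.33) and with quantile scaling (0.0040). For flowers and siliques against roots and leaves, HEC1 ran over -0.653 to 0.35, turned without siliques. Its value of -0.653, without flowers, had passed as lower, and the turned value did not pass. In the same contrast HEC2, which had passed under the main settings, ran over -0.0230 to 0.857, turned without flowers. Depth is unknown, so levels under 1 FPKM cannot be read as absence.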
